A study of Mus musculus with 4 samples.

Results

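The proteasome genes of mouse brown adipose tissue were compared between wild-type and Tsku knockout animals. Members were taken by name: every gene whose symbol begins with Psma, Psmb, Psmc, Psmd or Psme and a digit, plus Nfe2l1 and Ddi2, without the interferon-inducible subunits Psmb8, Psmb9 and Psmb10. The arrays measured 42 such genes among 22180 genes in all. Psma4 was left out because its 2 probe sets also carry the name of another gene, and Ddi2 had 0 listed probe sets. The 42 genes comprised 30 subunits of the 20S core and the 19S particle, the testis and thymus forms Psma8 and Psmb11, 3 chaperones of 19S assembly, 4 activator subunits, the regulator Nfe2l1, and Psmc3ip and Psme3ip1, which share the name pattern but are not subunits.

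The animals were male C57BL/6 mice aged 4 months on a chow diet, either wild type or lacking Tsku, the gene of the secreted proteoglycan tsukushi. Each genotype had 2 samples and each sample 1 whole-transcript array, so the number of arrays limits the precision. The sources used here do not say in which cells or how Tsku was deleted, and Tsku had 0 listed probe sets, so the genotypes rest on the labels. The samples are labelled as biological replicates, without a statement that each came from its own mouse, so a p-value here reflects the spread among these samples, which may be technical. Of 15 markers of brown adipocytes, 14, Ucp1 among them, were above background on all 4 arrays, and Elovl3 was above it on 2.

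The 26S proteasome degrades proteins that carry ubiquitin chains. Its 20S core is a barrel of alpha rings that gate the entrance and beta rings that hold the proteolytic sites, and the 19S particle on its end binds ubiquitin, removes it, and unfolds and threads the substrate with a ring of ATPases. When proteasome capacity falls short, the transcription factor NFE2L1, also called NRF1, escapes destruction, is cut by the protease DDI2 and raises transcription of proteasome subunit genes. In brown fat this route is known to adjust proteasome capacity to cold and thermogenic activity.

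NFE2L1 with a small MAF partner binds elements of the form TGACNNNGC or TGAGNNNGC. The 250 bases before the start site are therefore shown for the catalytic genes Psmb5 and Psmb6, and for Psmb3 and Psmd10, the 2 genes above background with an unadjusted p under 0.05. The sequences are RefSeq's on GRCm38.p6, written 5′ to 3′ on the strand of the gene, with matches to either element in capitals. They lie at chr14:54617996-54618245 (minus strand) for Psmb5, chr11:70525107-70525356 (plus strand) for Psmb6, chr11:97703184-97703433 (plus strand) for Psmb3 and chrX:140956712-140956961 (minus strand) for Psmd10.
Psmb5: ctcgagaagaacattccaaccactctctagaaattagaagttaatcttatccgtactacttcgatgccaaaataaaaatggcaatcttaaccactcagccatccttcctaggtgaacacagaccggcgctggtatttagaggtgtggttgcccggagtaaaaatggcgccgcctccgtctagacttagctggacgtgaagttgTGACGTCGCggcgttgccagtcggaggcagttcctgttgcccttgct
Psmb6: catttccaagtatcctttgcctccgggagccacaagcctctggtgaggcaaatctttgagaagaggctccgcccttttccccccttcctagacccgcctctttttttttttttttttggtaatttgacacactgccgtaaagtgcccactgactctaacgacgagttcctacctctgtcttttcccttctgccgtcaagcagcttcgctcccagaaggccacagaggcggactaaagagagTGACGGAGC
Psmb3: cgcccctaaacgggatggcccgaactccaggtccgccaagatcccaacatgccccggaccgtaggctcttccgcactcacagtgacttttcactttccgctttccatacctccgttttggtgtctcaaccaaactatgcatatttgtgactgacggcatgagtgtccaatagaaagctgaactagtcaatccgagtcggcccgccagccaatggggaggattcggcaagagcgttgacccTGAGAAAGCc
Psmd10: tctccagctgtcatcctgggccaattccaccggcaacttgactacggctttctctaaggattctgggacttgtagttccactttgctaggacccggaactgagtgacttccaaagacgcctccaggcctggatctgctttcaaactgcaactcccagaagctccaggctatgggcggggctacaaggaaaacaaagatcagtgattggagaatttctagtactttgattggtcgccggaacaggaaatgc
Psmb5 and Psmb6 each held 1 match to TGACNNNGC, which starts 47 bases before the start site in Psmb5 and 9 bases before it in Psmb6. Psmb3 held 1 match to TGAGNNNGC that starts 10 bases before the start site, and Psmd10 held none in this window.

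RefSeq start sites were listed for 35 of the 42 genes, with 43 promoters in all. Searched on both strands over the same 250 bases, TGACNNNGC occurred in 11.6% of the 43 promoters and in 10.2% of all 32851 promoters of that length. TGAGNNNGC occurred in 30.2% of them and in 14.4% of all. Genes with several start sites count more than once here: the 13 promoters with TGAGNNNGC belonged to 9 of the 35 genes. The box CCAAT, bound by NF-Y, occurred in 44.2% against 33.8%, and in these promoters 1 pair of matches to different motifs overlapped. The 12 genes with a match to either of the first elements had a median log2 difference between knockout and wild type of -0.09, with 3 of 12 higher in the knockout. In the 23 genes without a match the median was 0.10, with 15 of 23 higher. The difference between these sets of genes was not tested, and a match is a run of letters that need not be bound.

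The proteasome genes had no common direction between genotypes, and none passed the test. Over the 42 genes the median log2 difference, knockout minus wild type, was -0.0094, with 19 genes higher and 23 lower, against a median of 0.02 over all 22180 genes, of which 52.6% were higher. The differences ran from -0.65 for Psmb3 to 0.53 for Psmc5. With limma and Benjamini-Hochberg adjustment over all genes, 0 of the 42 genes and 0% of all genes had an adjusted p under 0.05, and the adjusted p-values of the 42 lay between 0.872 and 0.998. Leaving out wild-type replicate 1 gave 15 genes under that threshold and leaving out replicate 2 gave 2, none of them among the 42. With 1 wild-type array left, those fits take the residual spread from the knockout pair alone and assume that the lone array varies like it. At an unadjusted limma p under 0.05 there were 3 of the 42 genes, 2 higher (Psmb11 and Psmd10) and 1 lower (Psmb3), or 7.14%, against 5.56% of all genes, with 2.89% higher and 2.67% lower. That count was 2 without wild-type replicate 1, 1 without knockout replicate 1, and 0 without wild-type replicate 2 or without knockout replicate 2. In tissue arrays of this kind fewer cells and less RNA per cell cannot be told apart.

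**Figure D1:**
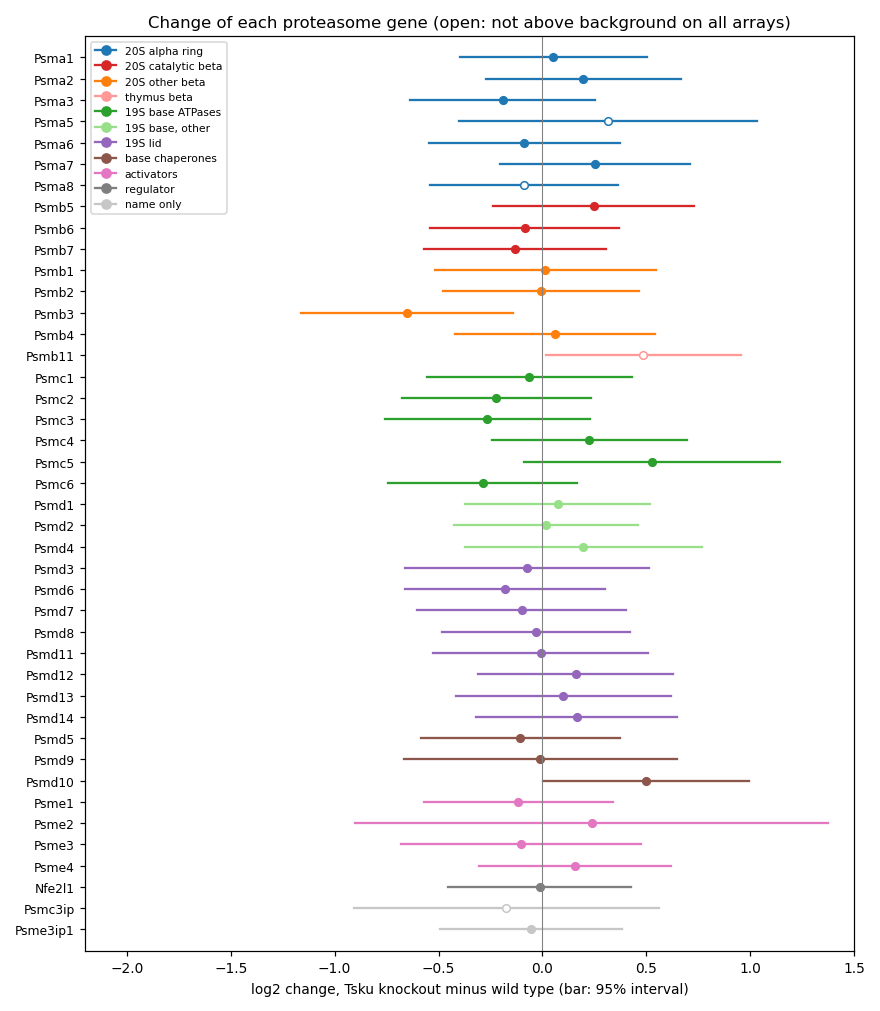
Log2 change of each of the 42 genes, Tsku knockout minus wild type, with its 95% limma interval, coloured by role. Filled points are genes above background on all 4 arrays and open points are the other 4. Points lie between -0.65 (Psmb3) and 0.53 (Psmc5), and 39 of the 42 intervals span 0.

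Of the 42 genes 38 were above background on all 4 arrays, background being the 95th percentile of the probe sets for olfactory and vomeronasal receptors. Below it on all 4 arrays were Psma8, known from testis, Psmb11, known from thymus, and Psma5, a subunit of every 20S core. Psmc3ip was above it on 2 arrays. The 38 detected genes had a median absolute log2 difference of 0.11, against 0.19 for the 9923 genes detected on all arrays. Gaps between arrays of 1 genotype, given below, were also smaller in the 38 genes. Whether this smaller spread accounts for the smaller difference was not tested. An absolute difference over 0.5, which is 1.41-fold, was found in 3 of the 38 detected genes (Psmb3, Psmc5 and Psmd10), or 7.89%, against 11.9% of all detected genes and 9.6% of all genes tested. An unadjusted limma p under 0.05 was found in 5.26% of the 38 and in 7.33% of all detected genes.

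The gap between the 2 arrays of 1 genotype was set beside the difference between genotypes. These measures are unlike: a gap compares single arrays, and the difference compares means of 2 arrays. Without any effect of genotype, the larger of a gene's gaps would therefore tend to exceed the difference. Over the 38 detected genes the median gap was 0.16 within wild type and 0.14 within the knockout. Over the 9923 detected genes of all kinds it was 0.24 in each genotype. For 28 of the 38 the larger of a gene's gaps exceeded the difference between genotypes. The same held for 7523 of the 9923 detected genes, so this is no trait of the proteasome genes. Over the 42 genes the arrays did not overlap between genotypes in 18, with 9 higher and 9 lower in the knockout. That is 42.9%, against 35.2% of all genes, 19.4% being higher and 15.8% lower. Among detected genes the shares were 42.1% and 36.5%. With every gene centred on its own mean, the median of the 42 genes was 0.0093 and -0.04 on wild-type replicates 1 and 2. On knockout replicates 1 and 2 it was -0.01 and -0.02. Wild-type replicate 1 was the highest array for 14 of the 42 genes and the lowest for 5. Wild-type replicate 2 was the highest for 6 and the lowest for 13. The knockout arrays were the highest for 10 and 12 genes and the lowest for 11 and 13. Over the 9923 detected genes wild-type replicate 1 was the highest for 3034 and the lowest for 1675. Wild-type replicate 2 was the highest there for 1770 and the lowest for 3326, so the tilt is no trait of the proteasome genes. Each gene's 95% interval gives the range of differences compatible with these values under the limma fit and the spread of these samples. For 35 of the 38 detected genes it lay within a log2 difference of 1 either way, and for 5 of the 38 within 0.5. Of the 9923 detected genes of all kinds, 7690 lay within 1 and 482 within 0.5.

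**Figure D2:**
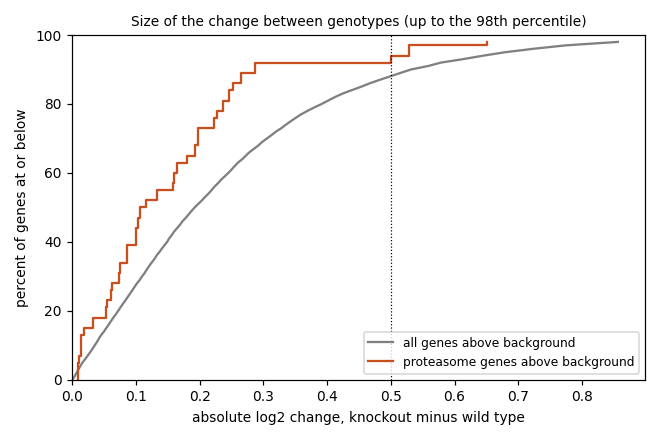
Cumulative share of genes (percent, vertical axis) by absolute log2 change between genotypes, for the 38 proteasome genes and the 9923 genes of all kinds that were above background on all 4 arrays. The dotted line marks 0.5, and medians are 0.11 for the proteasome genes and 0.19 for all detected genes.

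The 7 measured alpha ring genes comprised Psma1, Psma2, Psma3, Psma5, Psma6 and Psma7, whose products form the gate of the core, and the testis paralog Psma8. Psma7 read 5.70 and 5.87 in wild-type fat against 6.07 and 5.997 in knockout fat, which is a log2 difference of 0.25 (95% interval -0.21 to 0.71). Psma2 read 6.09 and 6.02 in wild-type fat against 6.14 and 6.36 in knockout fat. Psma3 went the other way, with 7.38 and 7.34 in wild-type fat against 7.23 and 7.12 in knockout fat, which is a log2 difference of -0.19 (-0.64 to 0.25). The arrays of the genotypes did not overlap for these 3 genes, as for 36.5% of all detected genes, and each interval included 0. Psma1 and Psma6 overlapped between genotypes and differed by 0.05 and -0.09.

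Psma5 had the largest alpha ring difference by value, 0.31, but its brightest probe set read -0.19 and 0.24 in wild-type fat against 0.0026 and 0.68 in knockout fat. Its second probe set was below background on all 4 arrays too. For an obligatory subunit that leaves the level of Psma5 unmeasured here, and no fold is given for it. Psma8 read between 0.28 and 0.45 on the 4 arrays.

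The beta subunits Psmb5, Psmb6 and Psmb7 carry the chymotrypsin-like, caspase-like and trypsin-like sites of the core. Psmb5 read 3.56 and 3.64 in wild-type fat against 3.99 and 3.70 in knockout fat, a difference of 0.25 (SE 0.20, 95% interval -0.24 to 0.73, limma adjusted p = 0.901). Both knockout arrays were above both wild-type arrays, and knockout replicate 1 lay highest. Without that array the difference was 0.10, and without knockout replicate 2 it was 0.39.

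Psmb6 read 5.74 and 5.58 in wild-type fat against 5.55 and 5.60 in knockout fat, a difference of -0.09 (-0.54 to 0.37), and the genotypes overlapped. It was -0.0065 with wild-type replicate 1 left out and -0.17 with replicate 2 left out. Psmb7 read 6.19 and 6.22 in wild-type fat against 6.07 and 6.07 in knockout fat, a difference of -0.13 (-0.57 to 0.30). Its arrays were the tightest of the catalytic genes, and both knockout arrays were the lower ones. The 3 catalytic genes thus had 1 value higher and 2 lower, all with an interval that included 0.

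Psmb3 was the gene with the largest difference. It encodes a structural beta subunit without a proteolytic site of its own. It read 2.56 and 2.53 in wild-type fat against 2.08 and 1.71 in knockout fat, or 2.55 ± 0.02 (SD, n = 2) and 1.90 ± 0.26 (SD, n = 2). The log2 difference was -0.65 (SE 0.21, 95% interval -1.16 to -0.14), with an unadjusted limma p of 0.0203 and an adjusted p of 0.872. Both knockout arrays were the lower ones, and most of the spread came from them. Left out in turn, single arrays gave differences from -0.83 to -0.47.

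The other structural beta subunits did not follow it. Psmb1 differed by 0.01, Psmb2 by -0.0082 and Psmb4 by 0.06, each with overlapping genotypes. Psmb1 read 5.70 and 5.44 in wild-type fat against 5.42 and 5.75 in knockout fat, so each genotype had a high and a low array. Psmb11, which replaces Psmb5 in thymus cortex, read -0.08 and -0.29 in wild-type fat against 0.24 and 0.36 in knockout fat. All 4 of those values were below background, so no fold is given, and the limma adjusted p was 0.872.

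**Figure D3:**
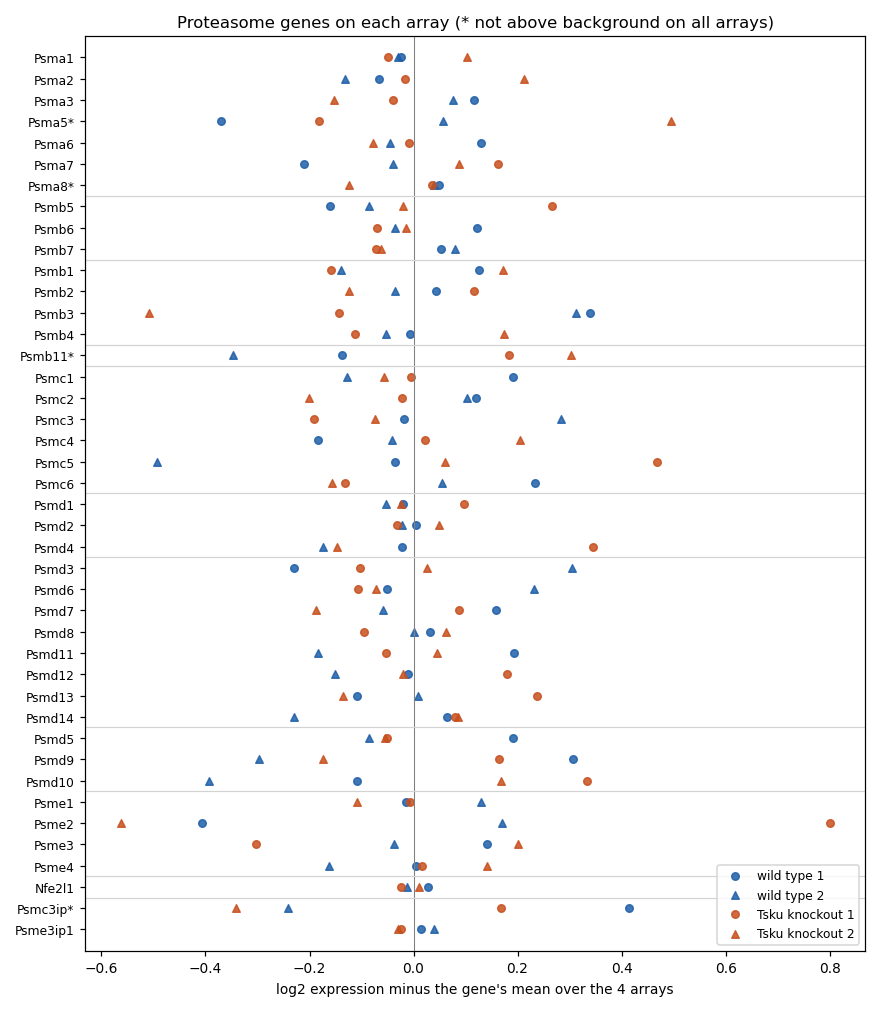
Log2 expression of the 42 genes on each array, minus the gene's mean over the 4 arrays (horizontal axis), with genes grouped by role between grey lines. Blue marks wild type and orange the knockout, circles replicate 1 and triangles replicate 2. Psme2 has the widest spread among detected genes, and Psmb3 has both knockout arrays to the left of both wild-type arrays.

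In the 19S base, the ATPases Psmc1 to Psmc6 form the unfolding ring. All 6 were detected, with 2 higher and 4 lower in the knockout and a median log2 difference of -0.14. Psmc5 read 4.10 and 3.64 in wild-type fat against 4.61 and 4.20 in knockout fat, a difference of 0.53 (SE 0.25, 95% interval -0.09 to 1.15, limma adjusted p = 0.872). The knockout arrays were both higher, but each genotype spanned over 0.4: the gap was 0.457 in wild type and 0.408 in the knockout. Without single arrays the difference ran from 0.30 (without wild-type replicate 2) to 0.76 (without wild-type replicate 1), and it was 0.32 without knockout replicate 1.

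The other ATPases gave smaller values in both directions. Psmc4 read 5.79 and 5.93 in wild-type fat against 5.99 and 6.18 in knockout fat, a difference of 0.23. Psmc6 read 7.22 and 7.04 in wild-type fat against 6.85 and 6.83 in knockout fat, a difference of -0.29 (-0.74 to 0.17). Psmc3 differed by -0.27 and Psmc2 by -0.22. In these genes the genotypes did not overlap, whereas in Psmc1, at -0.06, they did. Of all detected genes 36.5% did not overlap between genotypes. The subunits of 1 hexamer thus held both the highest difference of the 19S particle and its lowest. Psmc2 also had a second probe set, which was near background and differed by -0.05.

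The remaining base subunits are the scaffolds Psmd1 and Psmd2 and the ubiquitin receptor Psmd4. Psmd1 differed by 0.07 and Psmd2 by 0.02. Psmd4 read 5.46 and 5.31 in wild-type fat against 5.83 and 5.33 in knockout fat, a difference of 0.20 (-0.37 to 0.77). Only knockout replicate 1 stood above the wild-type arrays. Without it the difference was -0.05, and without knockout replicate 2 it was 0.44.

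All 8 lid genes were detected, and in each of them the larger gap between arrays of 1 genotype exceeded the difference between genotypes. That also held for 7523 of the 9923 genes detected on all arrays. The lid holds Psmd14, the deubiquitinase that strips the chain from a substrate before it enters the core. Psmd14 read 3.26 and 2.97 in wild-type fat against 3.28 and 3.28 in knockout fat, a difference of 0.16 (-0.32 to 0.65). The largest value was that of Psmd6, a scaffold subunit, which read 4.45 and 4.74 in wild-type fat against 4.40 and 4.43 in knockout fat, a difference of -0.18 (-0.66 to 0.30). Psmd12 differed by 0.16, Psmd13 by 0.10, Psmd7 by -0.10 and Psmd3 by -0.08. Psmd8 and Psmd11 differed by -0.03 and -0.0086. Psmd11, whose product links the lid to the core and limits assembly, read 6.37 and 5.996 in wild-type fat against 6.13 and 6.22 in knockout fat, so both knockout arrays lay between the wild-type arrays.

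Psmd10, the chaperone also called gankyrin, helps to assemble the ATPase ring and is not part of the finished proteasome. It read 3.70 and 3.41 in wild-type fat against 4.14 and 3.97 in knockout fat, or 3.55 ± 0.20 (SD, n = 2) and 4.06 ± 0.12 (SD, n = 2). The log2 difference was 0.50 (SE 0.20, 95% interval 0.0046 to 0.996), which is 1.41-fold, with an unadjusted limma p of 0.0485 and an adjusted p of 0.872. Both knockout arrays were above both wild-type arrays, and differences without single arrays ran from 0.36 to 0.64. The other chaperones of this step, Psmd5 and Psmd9, differed by -0.11 and -0.01 and overlapped between genotypes. Psmd9 read 2.62 and 2.02 in wild-type fat against 2.48 and 2.14 in knockout fat.

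Activators open the core in place of the 19S particle. Psme1 and Psme2 form the interferon-inducible PA28 ring, Psme3 forms its nuclear relative, and Psme4 is the large single-chain activator PA200. Psme1 read 5.86 and 6.00 in wild-type fat against 5.87 and 5.76 in knockout fat, a difference of -0.12 (-0.57 to 0.34). Its partner Psme2 read 1.47 and 2.04 in wild-type fat against 2.67 and 1.31 in knockout fat, a difference of 0.24 (-0.90 to 1.37). The knockout arrays were the highest and the lowest of the 4, with a gap of 1.36, the widest in the set. The sign therefore rests on single arrays: the difference was -0.44 without knockout replicate 1, 0.92 without knockout replicate 2, -0.05 with wild-type replicate 1 left out and 0.53 with replicate 2 left out. Psme3 differed by -0.10, with knockout arrays at 3.48 and 3.98, and Psme4 by 0.16.

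The immunoproteasome genes, which interferon induces and which replace the catalytic subunits, were also without a consistent direction. Psmb8 read 3.72 and 4.38 in wild-type fat against 4.32 and 3.98 in knockout fat. Psmb9 read 3.46 and 3.07 in wild-type fat against 3.12 and 3.18 in knockout fat, and Psmb10 4.54 and 4.53 against 4.71 and 4.14. The differences were 0.11, -0.11 and -0.12, with the genotypes overlapping in all 3 genes. Of 15 genes of the interferon gamma response 12 were measured, with 7 higher and 5 lower, a median of 0.03 and 0 with an unadjusted p under 0.05. The lowest p there was that of the chemokine gene Cxcl9, at -0.50.

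Nfe2l1, the regulator of proteasome subunit genes, read 5.56 and 5.52 in wild-type fat against 5.51 and 5.54 in knockout fat. All 4 arrays lay within a narrow band and the genotypes overlapped. The difference was -0.01 (SE 0.18, 95% interval -0.45 to 0.42, limma adjusted p = 0.996), and it took both signs when single arrays were left out, from -0.03 to 0.0061. NFE2L1 is controlled mainly at the protein level, by degradation and cleavage, which an RNA array does not record.

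Of the genes that process NFE2L1 or pair with it, Ddi2 was not measured, and the 12 others on the list were, with 4 higher and 8 lower, a median log2 difference of -0.06, and 0 with an unadjusted p under 0.05. The nearest was Maff, a small MAF partner, at -0.46 with 2 of 4 arrays above background. Sel1l, the adaptor of the ubiquitin ligase that removes NFE2L1 from the endoplasmic reticulum membrane, read 5.80 and 5.69 in wild-type fat against 5.35 and 5.42 in knockout fat, a difference of -0.36 (limma adjusted p = 0.873). Its partner Syvn1, the ligase itself, differed by -0.0036. Vcp, the ATPase that extracts the protein, read 6.75 and 6.85 in wild-type fat against 6.46 and 6.69 in knockout fat. Ngly1, which removes its sugars, differed by 0.13.

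Assembly factors of the 20S core and other proteasome partners lay outside the name rule. Of 7 assembly and inhibitor genes 6 were higher, against 52.6% of all genes, with a median log2 difference of 0.09 and 0 of 7 at an unadjusted limma p under 0.05. Psmf1, the inhibitor PI31, read 4.19 and 4.31 in wild-type fat against 4.34 and 4.62 in knockout fat. Pomp, the maturation factor of the beta ring, read 5.37 and 5.15 in wild-type fat against 5.53 and 5.39 in knockout fat. For both the knockout arrays were the higher ones, as in 19.4% of all genes. Psmg3, an assembly chaperone close to background, differed by 0.27, and by -0.0084 without knockout replicate 1.

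Of 8 proteins that sit on the proteasome 7 were measured, with 3 higher and 4 lower, a median of -0.04 and 0 with an unadjusted p under 0.05. Ube3c, a ligase that extends ubiquitin chains on the proteasome, differed by -0.35, and Usp14, a deubiquitinase that trims them, by 0.24. Of 12 genes of ubiquitin activation and delivery 5 were measured as single genes. Ubqln2, a shuttle that carries ubiquitinated proteins to the proteasome, had the lowest unadjusted limma p of these lists, 0.0275, and an adjusted p of 0.872. It read 2.82 and 3.35 in wild-type fat against 3.87 and 3.70 in knockout fat, a difference of 0.70 (SE 0.24). Its relatives Ubqln1 and Ubqln4 differed by 0.15 and 0.30 with overlapping genotypes. Uba6, an activating enzyme for ubiquitin, read 5.36 and 4.95 in wild-type fat against 4.77 and 4.58 in knockout fat, a difference of -0.48.

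Psmc3ip and Psme3ip1 have the name pattern of the set but another function. Psmc3ip, a factor of meiotic recombination, read 1.08 and 0.42 in wild-type fat against 0.83 and 0.32 in knockout fat, in part below background. Psme3ip1, whose product binds the nuclear activator made by Psme3, read 5.88 and 5.91 in wild-type fat against 5.85 and 5.84 in knockout fat, a difference of -0.05. Without these, the activators, the chaperones, the tissue-restricted forms and Nfe2l1, the 30 subunits of the core and 19S particle had 15 genes higher and 15 lower, with a median of 0.0024. The median was 0.01 over the 13 core genes and -0.0086 over the 17 genes of the 19S particle. Psma5, below background on all 4 arrays, is counted among the higher genes and enters the medians of the 30 and the 13. Above background on all arrays were 29 of the 30 and 12 of the 13.

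Markers of other tissues and cell types had these values on the same arrays. All 18 skeletal muscle markers had lower values in knockout fat, their median log2 difference being -1.68 and 13 of 18 at an unadjusted limma p under 0.05, against 5.56% of all genes. That count was 1 of 11 for macrophage, 2 of 12 for liver, 4 of 15 for brown adipocyte, 0 of 9 for lymphocyte and 0 of 7 for endothelial markers. The log2 of their summed level was 8.48 and 9.08 in wild-type fat against 7.90 and 6.44 in knockout fat, and 0 of 18 were below background on all arrays. Of 11 macrophage markers 10 were lower, with a median of -0.50, and their summed level was 8.05 and 8.10 in wild-type fat against 7.24 and 8.10 in knockout fat. Knockout replicate 1 had the lowest value for 9 of the 11. Of 12 liver markers 11 were higher, with a median of 0.52, and their summed level was 5.23 and 4.77 in wild-type fat against 6.59 and 5.56 in knockout fat. Knockout replicate 1 had the highest value for 11 of the 12. With each gene centred on its mean, their median was 0.62 on that array and -0.23 on knockout replicate 2, against -0.06 and -0.39 in wild type. Above background on all 4 arrays were 6 of the 12, and Fgg alone was below it on all. All 15 brown adipocyte markers were higher, with a median of 0.35 and sums of 11.96 and 11.89 against 12.17 and 12.18. Lymphocyte and endothelial markers had medians of 0.12 over 9 genes and -0.10 over 7. No marker gene passed an adjusted p of 0.05 in limma on the 4 arrays, and the fast troponin gene Tnni2, at -2.25, had a limma adjusted p of 0.0290 with wild-type replicate 1 left out, where the residual spread comes from the knockout pair alone. The part of these RNAs in the values of the proteasome genes, which all cells transcribe, was not tested.

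**Figure D4:**
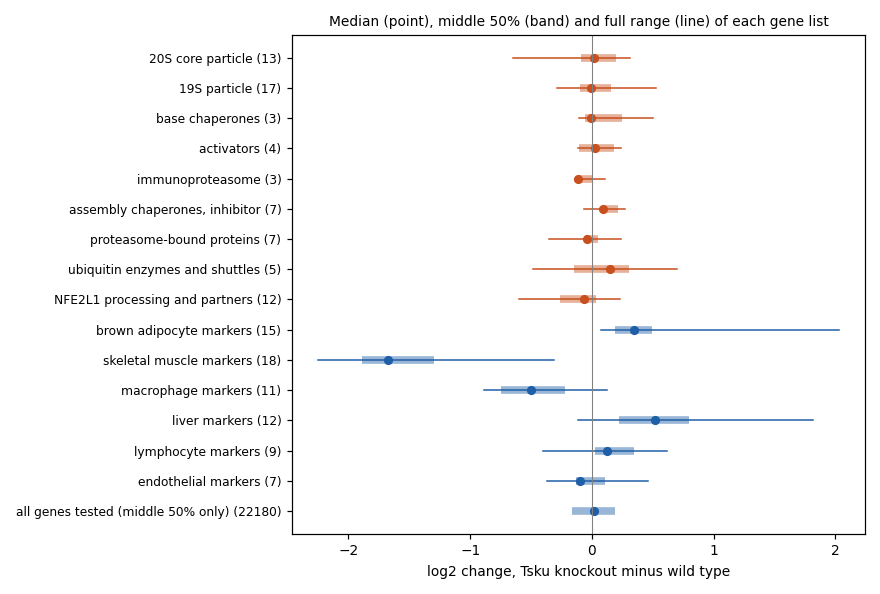
Log2 change, Tsku knockout minus wild type, of gene lists: points are medians, bands the middle 50% of genes and lines the full range, with the number of measured genes in brackets. Medians of the proteasome lists, in orange, lie from -0.11 (immunoproteasome) to 0.15 (ubiquitin enzymes and shuttles), and those of the marker lists and of all genes, in blue, from -1.68 (skeletal muscle) to 0.52 (liver).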

How the data were processed

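Total RNA of brown adipose tissue was labelled with biotin and hybridised to whole-transcript arrays, per the labels' protocols. The authors deposited normalized log2 expression values for 41345 probe sets on 4 arrays. The submitters' processing notes name limma, oligo and RMA, and versions, order and genome build are not given in the sources used here. RMA quantile-normalizes the arrays and understates changes of dim genes, and the base of the logarithm, which no source states, is taken as 2 from RMA. The values, negative for some probe sets, lie lower than RMA usually gives, by an offset of unknown origin. A constant offset cancels in differences, but the folds printed hold only for base 2. Levels of different probe sets cannot be compared. Whether probes also read pseudogenes of proteasome subunits was not tested.

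Probe sets with 1 gene symbol in the platform annotation (23521) were used, of which 23328 matched the GRCm38.p6 gene table by Entrez ID. Probe sets with several symbols (1814) or none listed (16010) were left out. The probe set with the highest mean was kept per gene, giving 22180 genes. Genotypes were compared with limma 3.58.1 in R 4.3.3 (lmFit and eBayes, two-sided, no filter, Benjamini-Hochberg adjustment over all genes). Residual degrees of freedom were 2 and prior degrees of freedom 3.96. The threshold was an adjusted p under 0.05. Background was set on each array from 1400 probe sets of olfactory and vomeronasal receptors, at their 95th percentile. The fit was tested on simulated data, where the requirement was that mean estimates lay near the planted changes. That requirement does not bear on how many changes of a given size the test calls.

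The members and lists were chosen with earlier results of these data known, so lists are described by counts and medians beside those of all genes. Named with the value on every array were Nfe2l1, Psmb5, Psmb6, Psmb7, members with an unadjusted p under 0.05 and the member with the largest change in each role. From each other list the rule took up to 2 genes with the smallest unadjusted p and the immunoproteasome genes. Other genes were named to complete a role, and Pomp, Vcp, Syvn1, Ngly1, Mafk, Mafg, Ubqln1, Ubqln4 and Fgg after their values were seen. Alternatives were a replicate block, a filter on dim genes, other probe sets per gene, other normalizations, a mean trend, subsets of members, and each array left out.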

Additional observations from a re-analysis of the deposited data

How the results depend on the processing

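No member passed an adjusted p of 0.05 in limma under any of the alternatives run (0 of 42, or 0 of 38 with a filter at the median level). The count over all genes, 0 in the comparison as reported, was 1 with a replicate block, 1 with a mean trend, 1 after median centring of arrays, and 0 to 15 without single arrays. The labels number the replicates, and whether equal numbers share a batch between genotypes was not tested. Over all genes the correlation between genotypes of the deviations by replicate number was -0.0726. With 2 arrays a genotype that value cannot settle the question. With the replicate block 1 member had an unadjusted limma p under 0.05. That count, 3 as reported, was 1 with the filter, 3 with arrays centred on their medians, 2 with repeated quantile normalization, and 0 to 2 without single arrays. The members' median difference of -0.0094 ran from -0.0394 to 0.0373 without single arrays, and from -0.0151 to 0.0024 under the other alternatives. The count of 18 members without overlap was 16 to 19 under other normalizations, probe sets and the filter, 13 among the 30 core and 19S subunits, 16 among the 38 detected members, and 27 to 32 without single arrays, where 1 array stands for a genotype and overlap is rarer by construction.

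With all 4 arrays kept, the sign turned in 1 of the 42 members (Psmd9, under repeated quantile normalization) and in 0 under the other alternatives. With 1 array left out it turned in 10 members without wild-type replicate 1, 2 without wild-type replicate 2, 7 without knockout replicate 1 and 9 without knockout replicate 2. Among the genes that the naming rule picks out, 10 turned. Over the 4 fits that leave out an array, the difference ran from -0.0339 to 0.0061 for Nfe2l1, -0.0236 to 0.6528 for Psma5, -0.0493 to 0.4443 for Psmd4, -0.4445 to 0.9187 for Psme2, -0.5017 to 0.1538 for Psmc3ip and -0.0084 to 0.5475 for Psmg3. It ran from -0.2232 to 0.4359 for Psmb8, -0.3076 to 0.0827 for Psmb9, -0.3964 to 0.1664 for Psmb10 and -0.9172 to 0.1832 for Cldn5. Without wild-type replicate 1, Nfe2l1 had 0.0061, Psme2 -0.0514, Psmc3ip 0.1538, Psmb9 0.0827 and Psmb8 -0.2232. Without knockout replicate 1, Nfe2l1 had 0.0036, Psmd4 -0.0493, Psme2 -0.4445, Psmg3 -0.0084, Cldn5 0.1832 and Psmb8 -0.0634. Without knockout replicate 2, Psma5 had -0.0236, Psmc3ip 0.0813 and Psmb10 0.1664. The cause was not tested.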

Other observations

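Autophagy is the other main route of bulk protein breakdown. All 17 of its listed genes were measured, with 11 higher and 6 lower in the knockout and a median log2 difference of 0.03. Of all genes 52.6% were higher. An unadjusted limma p under 0.05 was found in 1 of the 17, or 5.88%, against 5.56% of all genes. That gene was Atg7, the activating enzyme of autophagosome growth, which read 3.10 and 3.07 in wild-type fat against 3.50 and 3.65 in knockout fat, a difference of 0.49 with a limma adjusted p of 0.872. Gabarapl2, which encodes a protein that Atg7 activates, read 1.60 and 1.64 in wild-type fat against 1.85 and 2.10 in knockout fat, a difference of 0.36. In both genes the knockout arrays were the higher ones, as in 19.4% of all genes.

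NFE2L2, the relative of NFE2L1 that binds the same elements, its adaptor Keap1 and its antioxidant targets had a median difference of -0.0046 over 11 genes, with 5 higher and 6 lower. Keap1, which has NFE2L2 degraded, read 3.90 and 3.73 in wild-type fat against 3.30 and 3.49 in knockout fat, a difference of -0.43. Gstm1, a glutathione transferase, read 3.77 and 3.23 in wild-type fat against 3.96 and 4.36 in knockout fat, a difference of 0.66 with a limma adjusted p of 0.872. The ubiquitin ligases of muscle atrophy had 1 of 4 higher and a median of -0.18. The 1 higher gene, Trim63, was below background on all 4 arrays, and Fbxo40, which was lower, was above it on 2.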
